A study of Homo sapiens with 3 samples.

Results

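The genes described here are 41 named genes of the DNA damage response and of DNA repair. They were taken by symbol from a list and matched in all 41 cases to a gene of the count tables, which list 60609 genes. RNA was sequenced from NCI-H209, a line established from human small cell lung cancer, carrying a lentiviral Tet-pLKO-puro hairpin that doxycycline switches on. In the library named sh1362 and in the library named sh490 the hairpin targeted YES1, a Src-family tyrosine kinase. In the library named shGFP it targeted GFP, which human cells lack. The protocol shared by all 3 libraries gave doxycycline at 1 µg/mL every 2 days to induce the hairpin. There was 1 library of each kind, so the difference of a single hairpin from shGFP has no replicate check. Whether the infected cells were a pool or a clone, and how long the hairpin was on before harvest, is not given in the sources used here.

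Cells meet broken or stalled DNA with checkpoint kinases, which hold the cell cycle, and with repair pathways, which mend the lesion. Homologous recombination copies the lost sequence from the sister chromatid and so works in S and G2 phase, when that copy exists, and many of its genes are transcribed most in cycling cells. The Fanconi anaemia pathway handles crosslinks between the strands, also during replication. Sensing of breaks, repair of single-strand breaks and mismatch correction draw on proteins that cells hold throughout the cycle. Small cell lung cancer divides fast, and inhibitors of CHEK1, WEE1, ATR and PARP1 have been studied in it. To compare repair tied to replication with the rest, 19 members of homologous recombination and the Fanconi pathway form the S-phase-linked class, 13 members of break sensing, single-strand repair, mismatch repair, RPA and WRN the constitutive class, and 7 checkpoint genes a class of their own. POLQ and SLFN11 are in no class. Members and classes were chosen with earlier results of these data known. The name constitutive is a label, since levels through the cycle were not measured, and RPA also serves replication.

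Total counts were 7421552 in sh1362, 7791747 in sh490 and 4899006 in shGFP. YES1, the target, had 29.2 CPM in sh1362 and 20.6 in sh490, against 303 in shGFP. CPM are counts scaled to a common total, with the library size adjusted by TMM (trimmed mean of M values). All 9 markers of the neuroendocrine form of this cancer had reads, and they summed to 4585 CPM in sh1362 and 3661 in sh490, against 3214 in shGFP. The shGFP library stood apart in red cell transcripts: the 7 red cell markers summed to 20.4 CPM in sh1362 and 18.7 in sh490, against 734.9 in shGFP. Of these sums HBB gave 18.95, 17.2 and 645.8. In all 3 libraries, 2 of the 7, AHSP among them, were at 0. The 8 white cell markers summed to 2.98, 2.02 and 8.48 CPM, the 5 fibroblast markers to 6.77, 9.33 and 7.44, and the 4 endothelial markers to 5.42, 11.6 and 19.8. A read was found for 6 of the 8 white cell and 4 of the 5 fibroblast markers, with CD3E and DCN at 0 in every library. What part this RNA has in the comparisons with shGFP was not tested. The comparison of sh1362 with sh490 does not involve shGFP.

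As a group, the S-phase-linked members were lower in sh1362 than in the other libraries. That library also had the largest share of counts on mitochondrial genes, 7.78%, with 5.499% in sh490 and 5.47% in shGFP, and its part in the result was not tested. The summed level of the S-phase-linked class in sh1362 was 54.3% of that in shGFP (exact 95% counting interval 52.6 to 56.0), against 81.6% (79.3 to 84.1) for the constitutive class. With sh490 both classes were close to each other, at 84.4% (82.1 to 86.8) for the S-phase-linked and 83.9% (81.5 to 86.3) for the constitutive class. RAD51AP1 and PARP1 hold a large share of these sums, and without them the sh490 values were 74.2% and 85.3%, and the sh1362 values 55.6% and 72.2%. These intervals, like all that follow for single libraries, are exact and cover counting error only, and reads that carry no molecular identifiers need not be independent molecules.

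The test of both hairpins against shGFP, edgeR's quasi-likelihood F test, takes sh1362 and sh490 as 2 libraries of a group and shGFP as the other group. All 41 members passed its filter on low counts, among 15708 genes. At a threshold of 0.05 on the Benjamini-Hochberg adjusted p it called 0 of 41 members, and 4 of all genes (0.0255%; YES1 and 3 red cell genes, each lower). The adjusted p of the members ran between 0.986 and 0.999. At an unadjusted p under 0.05, 6 members were lower (EXO1, CHEK1, BRCA2, MDC1, FANCD2 and PARP2) and 0 higher, where 2.08% of all genes were lower and 2.27% higher. DESeq2 and limma-voom also called 0 members, and 0.0145% and 0.0127% of all genes. The test has 1 residual degree of freedom and assumes that the lone shGFP library varies like the hairpin libraries. That degree of freedom comes from sh1362 against sh490, which are different hairpins, since shGFP is a single library. The labels do not say that the libraries came from separate cultures, so the spread behind p comes only from these hairpin libraries. The test also draws the spread of each gene toward a trend over all genes in the fit. Where the hairpins differed, the standard error of the log2 fold was larger, 0.50 for WEE1 against 0.27 for BRCA2. Without the filter on low counts, 2 members passed, EXO1 (edgeR adjusted p 0.00146) and CHEK1 (0.00256), as did 0.210% of all genes.

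**Figure D1:**
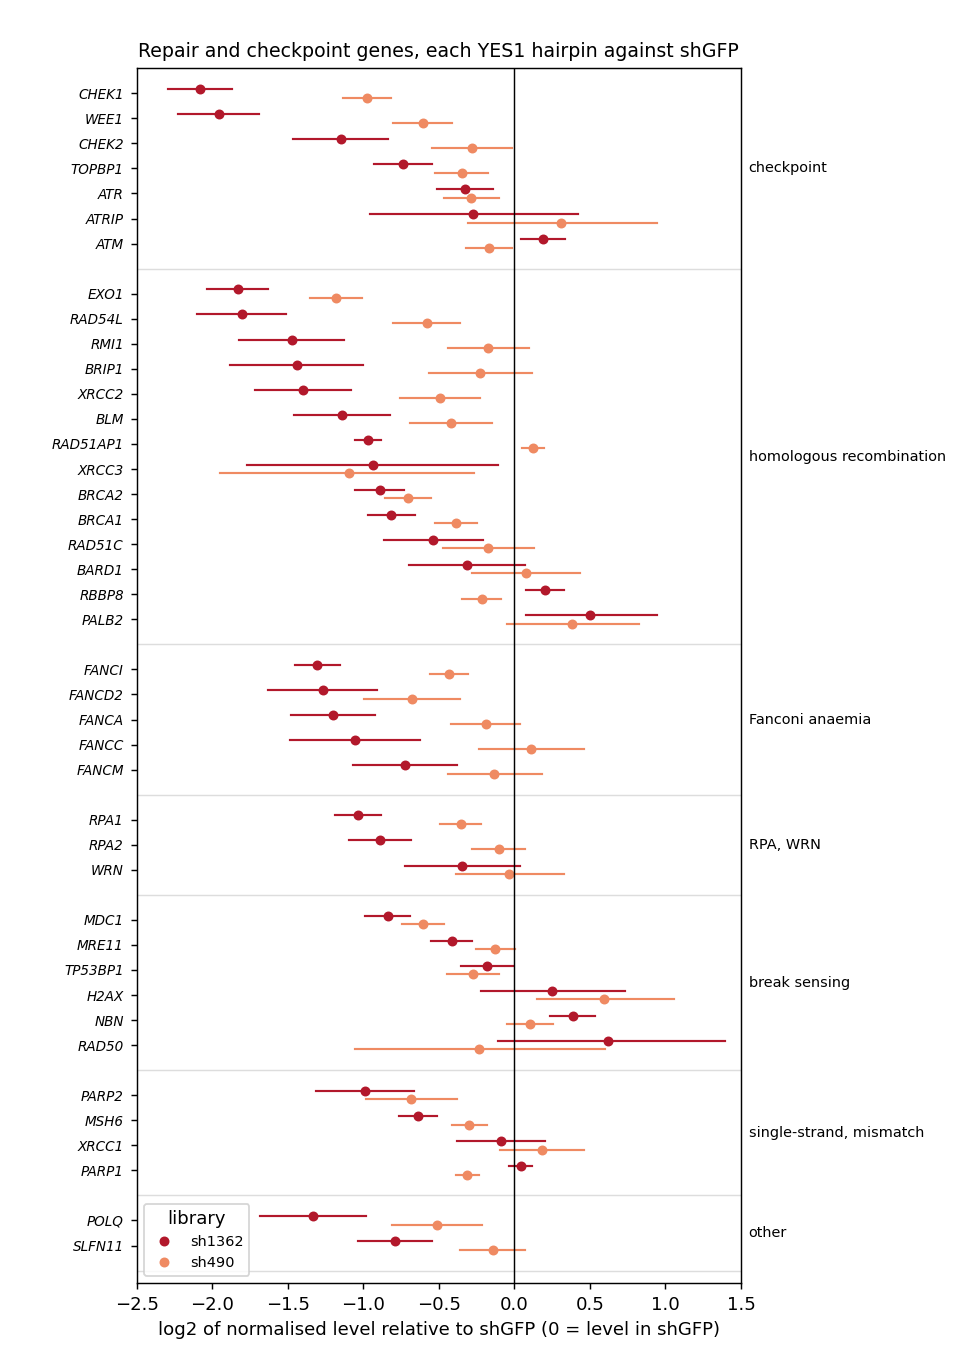
Level of each of the 41 members relative to shGFP (log2 axis, 0 is the shGFP level) in sh1362 (dark red) and sh490 (orange), by role; points are ratios of normalised counts and lines their exact 95% counting intervals. CHEK1, WEE1, EXO1 and RAD54L lie farthest left with sh1362, at 23.7%, 25.8%, 28.1% and 28.7% of shGFP, while PALB2 and NBN lie right of 0 with sh1362, at 141.7% and 130.6%.

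Promoters bear on these classes because E2F factors, which bind words such as those searched here, drive much of the transcription of S phase genes. RefSeq windows on GRCh38.p14, 250 bases before and 50 from the annotated start, were found for 36 of the 41 members, not for FANCI, NBN, RPA2, WEE1 and WRN. They were searched on both strands for the 4 words TTTGGCGC, TTTCGCGC, TTTCCCGC and TTTGCCGC. A word was present in 5 of 18 S-phase-linked promoters (27.8%: XRCC2, EXO1, FANCA, FANCC and FANCD2), 1 of 10 constitutive promoters (10%: MSH6) and 1 of 6 checkpoint promoters (16.7%: TOPBP1), against 3.33% of all 27305 promoters. The CCAAT word, bound by NF-Y, was in 50%, 70% and 66.7% of these classes and in 35.7% of all promoters. The word TTTGAA of the cell cycle element CHR, also searched on both strands, was in 11.1% of S-phase-linked, 30% of constitutive and 16.7% of checkpoint promoters, against 15.4% of all. A matching word is a description and does not show binding. The windows of EXO1 and FANCD2 carry a word at the start site, MSH6 is the constitutive member that carries one, and PARP1 carries none; capitals mark the word, on either strand.
EXO1 (chr1:241847954-241848253, plus strand): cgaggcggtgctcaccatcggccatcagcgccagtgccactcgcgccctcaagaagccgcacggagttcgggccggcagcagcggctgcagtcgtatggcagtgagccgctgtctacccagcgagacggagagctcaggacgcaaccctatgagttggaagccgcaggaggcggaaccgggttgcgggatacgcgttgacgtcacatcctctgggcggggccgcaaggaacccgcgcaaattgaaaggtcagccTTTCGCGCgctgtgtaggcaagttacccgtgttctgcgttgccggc
FANCD2 (chr3:10026187-10026486, plus strand): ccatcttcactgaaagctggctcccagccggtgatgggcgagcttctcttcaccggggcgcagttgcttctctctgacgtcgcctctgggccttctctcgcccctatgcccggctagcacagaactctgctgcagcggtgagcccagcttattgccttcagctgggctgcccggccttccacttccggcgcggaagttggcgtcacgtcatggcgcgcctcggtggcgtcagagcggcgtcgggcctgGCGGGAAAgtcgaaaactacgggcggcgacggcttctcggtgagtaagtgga
MSH6 (chr2:47782895-47783194, plus strand): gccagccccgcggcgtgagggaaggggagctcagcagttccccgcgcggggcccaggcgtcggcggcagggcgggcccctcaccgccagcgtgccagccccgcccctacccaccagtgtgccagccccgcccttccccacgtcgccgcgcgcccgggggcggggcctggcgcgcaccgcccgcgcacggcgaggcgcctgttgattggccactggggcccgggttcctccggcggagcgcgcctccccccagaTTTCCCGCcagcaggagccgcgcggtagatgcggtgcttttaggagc
PARP1 (chr1:226408044-226408343, minus strand): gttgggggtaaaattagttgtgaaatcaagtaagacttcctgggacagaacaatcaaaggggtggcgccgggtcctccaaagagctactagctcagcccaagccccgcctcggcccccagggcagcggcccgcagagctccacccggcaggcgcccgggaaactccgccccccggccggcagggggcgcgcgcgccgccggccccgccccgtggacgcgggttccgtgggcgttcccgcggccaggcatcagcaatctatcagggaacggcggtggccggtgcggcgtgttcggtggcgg
The word began 4 bases after the annotated start in EXO1, 2 bases before it in FANCD2 and 3 bases after it in MSH6. EXO1 stood at 28.1% of shGFP with sh1362 and 44.1% with sh490, FANCD2 at 41.6% and 62.5%, MSH6 at 64.2% and 81.4%, and PARP1 at 102.9% and 80.7%. Members with no word in their window included CHEK1, RAD54L, RMI1 and BRIP1, at 23.7%, 28.7%, 36.1% and 37.0% of shGFP with sh1362. The CHEK1 window begins at base 125625979, inside the gene as counted, which starts at 125625665. The RAD54L window begins at 46247438, inside a gene counted from 46246461. Some other windows, that of MSH6 among them, also lie inside the gene as counted. The windows of BRCA1 and RMI1 lie wholly outside it, upstream of the gene as counted. A single RefSeq start per gene was searched, so words at other starts are not known. The other members with a word, XRCC2, FANCA, FANCC and TOPBP1, stood at 38.0%, 43.6%, 48.2% and 60.0% with sh1362.

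The checkpoint class held the member with the lowest level relative to shGFP in sh1362. CHEK1 (ENSG00000149554.13, chromosome 11, 125625665 to 125676255 on the plus strand of GRCh38) encodes the kinase that stops the cycle when replication stalls. It had 254 counts in sh1362 and 586 in sh490, against 702 in shGFP, that is 34.4 and 73.9 against 145.1 CPM. Both hairpin libraries were below the control, sh1362 at 23.7% of it (20.4 to 27.4) and sh490 at 50.9% (45.6 to 56.9). Taking both together, edgeR gave a log2 fold of -1.42 (standard error 0.43, unadjusted p 0.0126, adjusted p 0.986).

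WEE1 encodes the kinase that restrains CDK1 before mitosis. It had 161 counts in sh1362 and 440 in sh490, against 409 in shGFP, or 21.8 and 55.5 against 84.5 CPM. Its level was 25.8% of shGFP in sh1362 (21.3 to 31.0) and 65.6% in sh490 (57.2 to 75.3), so that the YES1 hairpins also stood apart from each other. By edgeR the log2 fold was -1.13 (standard error 0.50, adjusted p 0.986). CHEK2, the effector kinase downstream of ATM, had 19.5 CPM in sh1362 and 35.6 in sh490, against 43.2 in shGFP.

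The kinases at the top of the checkpoint pathways were nearer to the control. ATM, which responds to breaks, had 141.8 CPM in sh1362 and 110.5 in sh490, against 124.2 in shGFP; sh1362 was above the control and sh490 below it. ATR, which responds to exposed single strands, had 70.7 and 72.8 CPM, against 88.7, close to each other in the YES1 hairpins. TOPBP1, an activator of ATR, had 59.6 and 77.9 CPM, against 99.2. ATRIP, the partner of ATR, had only 43 counts in sh1362 and 69 in sh490, against 34 in shGFP, and its intervals of 51.6 to 133.9% and 81.0 to 192.6% do not separate it from the control at this depth; 26.7% of its exonic bases also lie under another gene. In the class of 7, the median log2 fold was -0.73 with sh1362 and -0.28 with sh490, where the median over all 15708 genes was 0.00 with each.

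Among the genes that prepare ends for recombination, EXO1, a nuclease that resects broken ends, had the lowest level relative to shGFP in each library. EXO1 (ENSG00000174371.17, chromosome 1, 241847967 to 241895148 on the plus strand of GRCh38) had 288 counts in sh1362 and 485 in sh490, against 671 in shGFP, or 39.0 and 61.2 against 138.7 CPM. The levels were 28.1% (24.4 to 32.3) and 44.1% (39.2 to 49.6) of the control. The log2 fold for both hairpins by edgeR was -1.47 (standard error 0.33, unadjusted p 0.00202, adjusted p 0.986). RBBP8 encodes CtIP, which starts resection. It had 196.0 CPM in sh1362 and 146.6 in sh490, against 170.3 in shGFP, highest in sh1362 and lowest in sh490. BLM, a helicase of the same step, had 19.4 and 31.8 CPM, against 42.6, and RMI1, its partner in dissolving joined molecules, had 14.8 and 36.3, against 40.9.

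The core mediators of strand exchange did not have one pattern. BRCA1 had 657 counts in sh1362 and 949 in sh490, against 756 in shGFP, that is 89.0, 119.7 and 156.3 CPM. BRCA2, a mediator of strand exchange, had 568 and 694 counts, against 689, or 76.9, 87.5 and 142.4 CPM. Both were below the control with each hairpin, BRCA1 at 56.9% and 76.6% and BRCA2 at 54.0% and 61.5%. PALB2, which links BRCA1 to BRCA2, had 19.6 CPM in sh1362 and 18.04 in sh490, against 13.9 in shGFP. That is 141.7% of the control (105.4 to 192.3) and 130.2% (96.8 to 176.8), the second interval including the control level. BARD1, the dimer partner of BRCA1, had 17.6 and 23.1 CPM, against 21.9, with intervals that include the control level in both.

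Genes that act in strand exchange itself were lower in sh1362 than in sh490, other than XRCC3. RAD54L, a motor protein of strand exchange, had 140 counts in sh1362 and 351 in sh490, against 320 in shGFP, or 18.95, 44.3 and 66.2 CPM. BRIP1, a helicase bound to BRCA1, had 9.48 CPM in sh1362 and 21.9 in sh490, against 25.6 in shGFP, so that only sh1362 lay below the control beyond counting error. XRCC2 had 17.6 and 32.9 CPM, against 46.3, and RAD51C, which acts in a complex with XRCC3 and in a separate one with XRCC2, had 21.9 and 28.3, against 31.8. XRCC3 had 24, 23 and 30 counts, and 76.7% of its exonic bases lie under another gene, where the counter leaves reads out, so its level is uncertain.

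RAD51AP1, which stimulates strand exchange, was the most abundant member per length, and its YES1 hairpin libraries stood on opposite sides of the control. It had 1939 counts in sh1362 and 4436 in sh490, against 2482 in shGFP, or 262.5, 559.5 and 513.1 CPM. The sh1362 library stood at 51.2% of the control (48.2 to 54.3), while sh490 stood above it at 109.0% (103.8 to 114.6). Per length of annotated exon, RAD51AP1 averaged 659 TPM (a level per exonic length, scaled to the same sum in every library) over the 3 libraries, with PARP1 next at 251 and RPA2 at 141 TPM; the median member had 27.6 TPM and the median of all genes kept 15.7. RAD51AP1 gave 37.7% of the counts of its class in sh490, so a sum over the class follows it.

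Of the groups of members, the Fanconi genes had the lowest summed level relative to shGFP with sh1362. It was 43.4% of shGFP with sh1362 (40.2 to 46.9) and 78.9% with sh490 (74.0 to 84.2). FANCI, which pairs with FANCD2 on damaged DNA, had 589 counts in sh1362 and 1155 in sh490, against 952 in shGFP, or 79.7, 145.7 and 196.8 CPM. FANCD2 had 106 and 171 counts, against 167, or 14.4, 21.6 and 34.5 CPM. FANCA and FANCC, both in the complex that marks FANCD2 and FANCI with ubiquitin, had 24.8 and 10.97 CPM in sh1362 and 49.8 and 24.6 in sh490, against 56.8 and 22.7 in shGFP. FANCM, the translocase that recruits that complex, had 18.4 and 27.7 CPM, against 30.4. All 5 genes had their lowest level in sh1362; in sh490, FANCA, FANCC and FANCM were within counting error of the control, and FANCI and FANCD2 were below it.

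**Figure D2:**
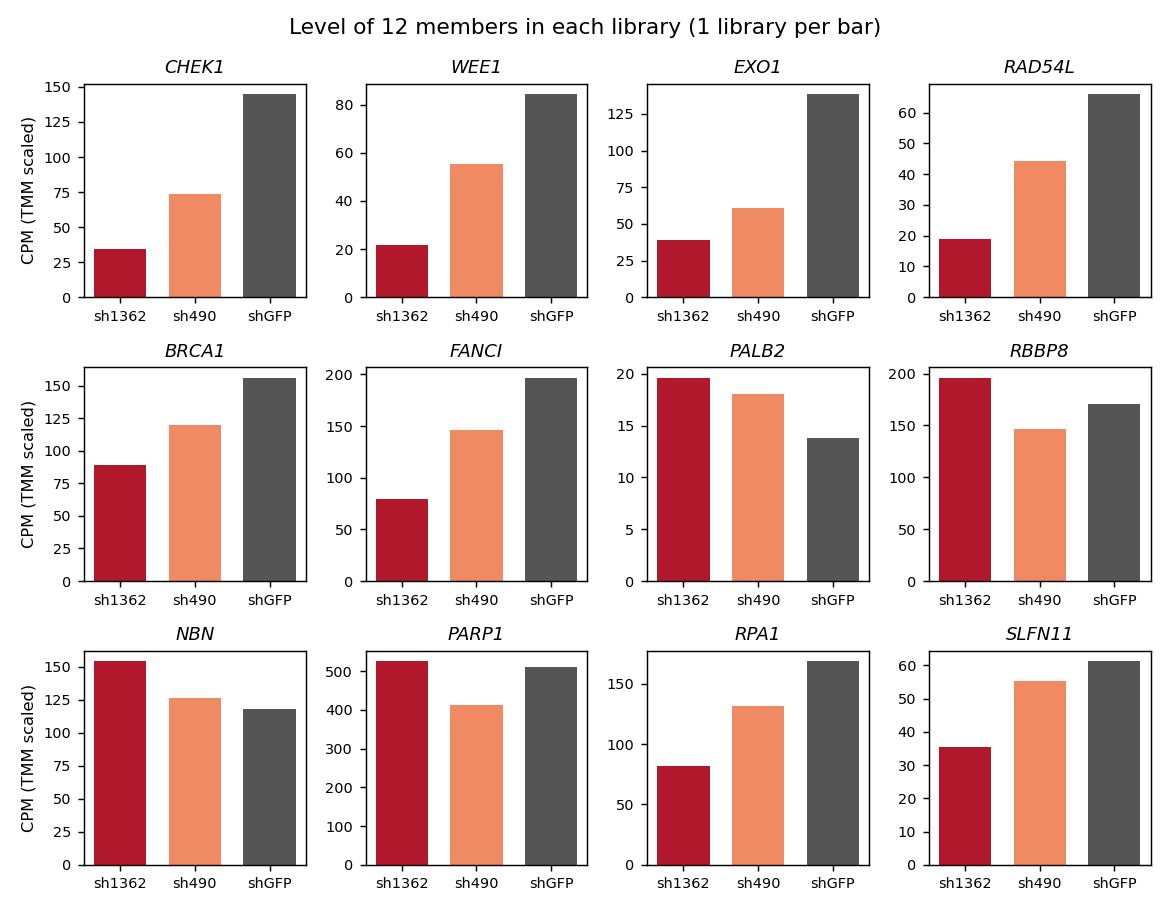
Level of 12 members in the libraries sh1362, sh490 and shGFP (vertical axes: CPM scaled by TMM, starting at 0, with a scale of their own per gene; each bar is 1 library, so there are no error bars). CHEK1, WEE1, EXO1, RAD54L, BRCA1, FANCI, RPA1 and SLFN11 are lowest in sh1362 and highest in shGFP, whereas PALB2 and NBN are lowest in shGFP and RBBP8 and PARP1 lowest in sh490.

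In the constitutive class the 6 break-sensing genes summed to 84.7% of shGFP with sh1362 (80.6 to 89.0) and 86.9% with sh490 (82.8 to 91.2). The MRE11 complex holds broken ends and activates ATM. MRE11 had 128.1 CPM in sh1362 and 156.4 in sh490, against 170.8 in shGFP. NBN, its regulatory subunit, had 153.9 and 126.5 CPM, against 117.8, and stood above the control with sh1362 (130.6%, 118.0 to 144.7). RAD50, its other subunit, had only 54, 32 and 23 counts, with 76.9% of its exonic bases under another gene, so its level is uncertain. H2AX, the histone that is phosphorylated around breaks, had 14.5 and 18.4 CPM, against 12.2, and TP53BP1, which steers breaks to end joining, had 88.7 and 83.1, against 100.5. MDC1, which binds phosphorylated H2AX, was the low sensor, with 94.5 and 111.1 CPM, against 168.9 in shGFP (edgeR log2 fold -0.72, standard error 0.27, adjusted p 0.986).

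Single-strand break and mismatch genes gave mixed values. PARP1, which binds nicks and is the target of PARP inhibitors, had 3876 counts in sh1362 and 3262 in sh490, against 2467 in shGFP, or 524.8, 411.4 and 510.0 CPM. The sh1362 level matched the control within counting error, and sh490 was at 80.7% of it (76.5 to 85.0). XRCC1, a scaffold of the same repair, had 33.0 and 39.9 CPM, against 35.1. PARP2, a relative of PARP1, was lower, with 19.1 and 23.6 CPM, against 37.8, and MSH6, a mismatch sensor, had 138.5 and 175.4 CPM, against 215.6.

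The genes of the single-strand binding protein RPA were lowest in sh1362. RPA1 had 607 counts in sh1362 and 1044 in sh490, against 815 in shGFP, or 82.2, 131.7 and 168.5 CPM. RPA2 had 359 and 665 counts, against 436, or 48.6, 83.9 and 90.1 CPM. RPA coats single strands in replication as well as in repair. With WRN, these members of the constitutive class summed to 52.8% of shGFP with sh1362 (48.7 to 57.2) and 84.5% with sh490 (78.8 to 90.7). WRN, a helicase of the same family as BLM, had 17.6 and 21.8 CPM, against 22.3, and its interval reached the control level with both hairpins. Outside the classes, POLQ, the polymerase of an end-joining route that uses short repeats, had 14.9 and 26.2 CPM, against 37.4. SLFN11, whose loss is linked to resistance of small cell lung cancer to agents that damage replicating DNA, had 35.5 and 55.4 CPM, against 61.2.

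By count, 10 of 19 S-phase-linked members stood at least 2-fold below shGFP in sh1362, as did 1 of 13 constitutive (RPA1) and 3 of 7 checkpoint members (CHEK1, WEE1 and CHEK2), where 8.23% of all genes did. With POLQ that made 15 of 41, and 0 members were at least 2-fold higher (7.49% of all genes). With sh490, 2 of 41 were at least 2-fold lower, EXO1 and XRCC3, against 4.00% of all genes, and 0 higher (4.58%). The median log2 fold with sh1362 was -1.03 in the S-phase-linked and -0.34 in the constitutive class, a difference of -0.69. With sh490 both medians were -0.22; the means, -0.33 and -0.16, were apart. The counting interval lay below the control level in 16 of 19 S-phase-linked and 7 of 13 constitutive members with sh1362, where 24.7% of all genes did, and in 10 of 19 and 6 of 13 with sh490, where 18.6% did. It lay above the control in 2 and 1 members with sh1362 (23.5% of all genes), and in 1 and 1 with sh490 (17.6%). The comparisons of the hairpins with shGFP share that library, and their values are therefore given side by side only. Neither the classes nor single hairpins were tested, since members are not replicates of a condition.

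**Figure D3:**
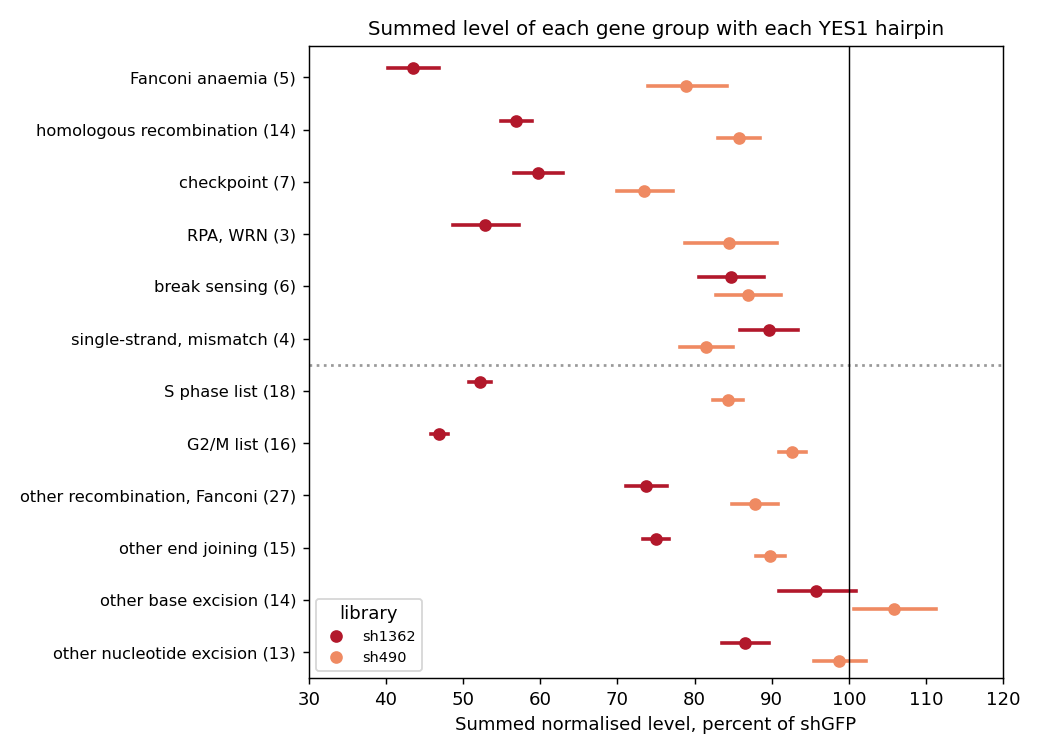
Summed normalised level of each gene group as percent of shGFP in sh1362 (dark red) and sh490 (orange); lines are exact 95% counting intervals, numbers in brackets the genes per group, and groups below the dotted line are not members. Fanconi, recombination, RPA with WRN, S phase and G2/M sums lie between 43.4% and 56.9% with sh1362, while break sensing and single-strand with mismatch repair lie at 84.7% and 89.6%.

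The hairpins were also set against each other, without the control library. The summed level in sh1362 was 64.3% of that in sh490 for the S-phase-linked class (62.4 to 66.3) and 97.4% for the constitutive class (94.8 to 100.1). RAD51AP1 gave 37.7% of the S-phase-linked counts in sh490, and PARP1 gave 38.8% of the constitutive counts in sh1362. Both sums therefore lean on these genes, with PARP1 in sh1362 at 127.6% of its sh490 level (121.7 to 133.7) and RAD51AP1 at 46.9%. The median log2 folds were -0.65 and -0.29, and -0.56 in the checkpoint class. By log2 folds with a prior count of 2, 7 of 41 members were at least 2-fold lower in sh1362, against 6.18% of all genes: WEE1, RMI1, RAD54L, BRIP1, FANCC, CHEK1 and RAD51AP1. WEE1 in sh1362 stood at 39.3% of its sh490 level (32.6 to 47.2), RMI1 at 40.6% (32.3 to 50.8) and RAD54L at 42.8% (34.9 to 52.2). BRIP1 stood at 43.2% (32.2 to 57.3), FANCC at 44.6% (34.0 to 58.1), CHEK1 at 46.5% and RAD51AP1 at 46.9% (44.5 to 49.5). FANCA, at 49.7% (41.5 to 59.4), lay next to the 2-fold line; the count was 8 with a prior count of 0.5 and with scaling to library totals. BRCA2 was much nearer in both, at 87.9% (78.5 to 98.3), and ATR, at 97.1% (86.1 to 109.5), was not separated by counting error. None was at least 2-fold higher (5.58% of all genes). The counting interval lay below the sh490 level in 16 of 19 S-phase-linked and 6 of 13 constitutive members (24.9% of all genes), and above it in 1 and 3 (23.4%). The S-phase-linked member above was RBBP8, and the constitutive ones were NBN, PARP1 and RAD50, the last with few reads; ATM of the checkpoint class also lay above.

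**Figure D4:**
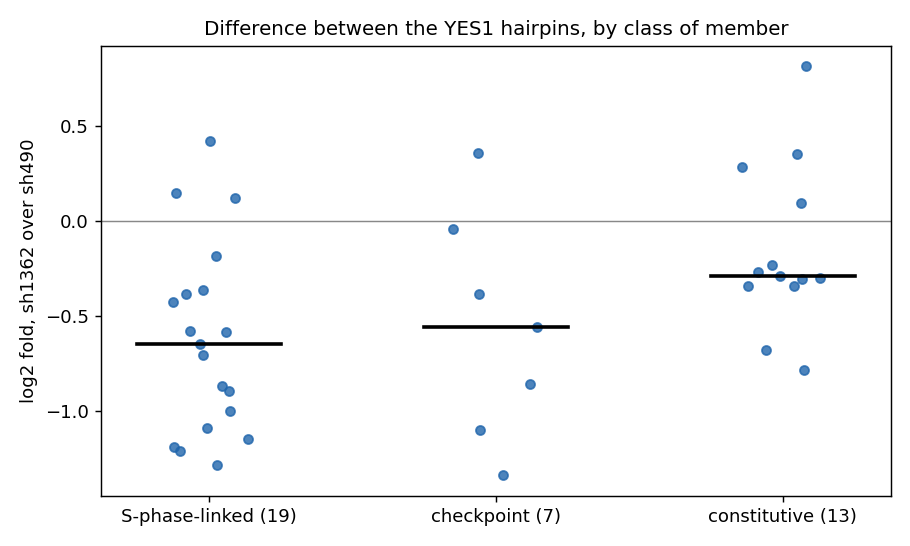
Log2 fold of sh1362 over sh490 (vertical axis) for each member of the S-phase-linked, checkpoint and constitutive classes; each point is a gene, spread sideways only to be seen, and bars are medians. The medians are -0.65, -0.56 and -0.29, and the ranges of the classes overlap.

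Lists of cell cycle genes that are not members were measured beside these classes. The 18 S phase genes summed to 52.2% of shGFP with sh1362 (50.8 to 53.6) and 84.3% with sh490 (82.3 to 86.2), with medians of -0.97 and -0.20. The 16 G2/M genes summed to 46.9% (45.9 to 48.0) and 92.7% (90.9 to 94.5), with medians of -0.95 and -0.11. TYMS, which makes thymidylate, had log2 folds of -1.87 and -0.63, CDC6, which loads the replicative helicase, -1.36 and -0.79, CDK1, the mitotic kinase, -1.20 and -0.62, and CCNA2, which encodes cyclin A2, -1.40 and -0.34. What part the number of cycling cells has in the members' levels was not tested; in bulk RNA fewer cells of a kind and less RNA per cell cannot be told apart. By exonic length, the median log2 fold with sh1362 was 0.07 in the shortest quartile of genes and -0.07 in the longest, which holds 19 of the 41 members, and 0.00 and -0.01 with sh490.

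Other genes of these pathways numbered 89 in 6 lists, and 88 of them were tested. Of these, 0 passed the edgeR test in either direction. At an unadjusted edgeR p under 0.05, 6 were lower and 0 higher (2.08% and 2.27% of all genes). The 27 other recombination and Fanconi genes had medians of -0.36 with sh1362 and -0.18 with sh490, and 7 and 0 of them were at least 2-fold lower (8.23% and 4.00% of all genes). MCM8, a helicase of recombination, had log2 folds of -1.49 with sh1362 and -0.53 with sh490, and RMI2, a partner of BLM, -1.43 and -0.49. The 15 checkpoint genes had medians of -0.52 and -0.27, with CDC25A, a phosphatase that CHEK1 restrains, at -1.87 and -0.72. The kinase that fires replication origins gave -1.15 and -0.50 for its catalytic subunit CDC7 and -1.12 and -0.65 for its activator DBF4. End joining genes had medians of -0.15 and -0.09, nucleotide excision genes -0.16 and -0.15, mismatch genes 0.05 and -0.12, and base excision genes 0.17 and 0.11. OGG1, which removes oxidised guanine, had log2 folds of 0.87 with sh1362 and 0.69 with sh490.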

How the data were processed

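Each deposited table holds unnormalized counts of reads on every gene in a library. STAR 2.6.1c aligned them to GRCh38, per the submitters' processing notes, and featureCounts 1.6.0 made the counts from GENCODE 32 exons, per the file headers. Its command, as the headers record it, names no strand or pair setting. By its defaults, both strands are then added and reads over several genes or places left out; 6 members share over 20% of their exonic bases with another gene. Symbols were found for 60295 of 60609 gene IDs.

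Counts were tested with edgeR 4.0.16 in R 4.3.3 (TMM, filterByExpr, robust quasi-likelihood F test, two-sided, Benjamini-Hochberg adjustment over all 15708 genes kept). The procedure was also run on data made with known changes. Those data gave every library the same spread, so that run cannot check whether shGFP varies like the hairpin libraries. DESeq2 1.42.0, limma 3.58.1, other scalings, filters, prior counts and class memberships were the alternatives. Log2 folds of single hairpins use CPM and a prior count of 2, and percentages are ratios of TMM-scaled counts with exact 95% binomial intervals. Promoters came from RefSeq (GRCh38.p14). Named are all members, checks of the libraries, and, in each list of other repair genes and of cell cycle genes, some of those with a mean of at least 5 CPM and the largest mean fold over the hairpins (up to 3 and 2 per list). A few genes that this rule names are not reported here. Members, classes and lists were chosen with earlier results of these data known. A count of 0 allows up to 3 counts, or 0.404, 0.385 and 0.612 CPM of the library total in sh1362, sh490 and shGFP.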

Additional observations from a re-analysis of the deposited data

How the results depend on the processing

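The count of members past the edgeR test was 0 with TMM, with DESeq2 size factors, with a mean of at least 5 CPM, with DESeq2 and with limma-voom, and 2 without a filter on low counts. The difference of medians between the S-phase-linked and constitutive classes ran between -0.79 and -0.64 with sh1362 and between -0.17 and 0.01 with sh490 over the scalings, prior counts, class memberships and summaries tried. The S-phase-linked sum was 87.0% of shGFP with sh490 and the constitutive sum 86.4% when scaled to library totals, and with sh1362 they were 56.2% and 84.5% with upper-quartile scaling. With EXO1, RBBP8, BLM and RMI1 out of the S-phase-linked class it was 88.5% with sh490 and 50.2% with sh1362; with MSH6, RPA1, RPA2 and H2AX out of the constitutive class, or counted as S-phase-linked, the constitutive sum with sh1362 was 91.4%. Without RAD51AP1 and PARP1, chosen after seeing the data, the S-phase-linked sum with sh490 was 74.2% and the constitutive sum with sh1362 72.2%. The count of members at least 2-fold lower with sh490 was 1 in place of 2 with library totals, with a mean of at least 5 CPM, and, added after seeing the data, without RAD50 and XRCC3, which share over 50% of their exonic bases with another gene. Leaving out a YES1 hairpin leaves no residual degree of freedom, so it gives values without a test: they are the log2 folds of the other hairpin, and for 9 of 41 members (ATM, ATRIP, BARD1, RAD51AP1, RBBP8, FANCC, RAD50, PARP1 and XRCC1) the sign then differs from that of both together for one hairpin. The cause of these differences was not tested. No paired analysis was possible because there is 1 library of each hairpin. The shallowest library, shGFP, sets the precision of most values, and members with under 100 counts there (ATRIP, XRCC3, RAD50, PALB2 and H2AX) are the least certain.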

Other observations

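Transcripts that the p53 pathway induces after damage had mixed values. Of the 20 genes listed, 19 were tested, and 0 passed the edgeR test. Their median log2 fold was -0.22 with sh1362 and 0.08 with sh490. GADD45A, which binds PCNA and slows the cycle, had 161.3 CPM in sh1362 and 164.7 in sh490, against 440.9 in shGFP (edgeR adjusted p 0.858). TP53I3, an oxidoreductase, had 59.0 and 52.97 CPM, against 27.1, and TNFRSF10B, a death receptor, 10.02 and 24.1, against 40.9. GADD45A was highest in shGFP and TP53I3 lowest there, each close between the YES1 hairpins, and TNFRSF10B was lowest in sh1362. At an unadjusted edgeR p under 0.05, 2 of the list were lower and 1 was higher, where 2.08% and 2.27% of all genes were.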
